A study of Mus musculus with 7 samples.

Results

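The Eya-Six-Dach network, a set of transcription regulators that work together, was examined in myoblasts lacking Hmga2 and in wild type myoblasts. The members were Eya1, Eya2, Eya3, Eya4, Six2, Six4, Six5 and Dach1, taken as all probe sets that the platform annotation pairs with one of these genes alone. They were measured by 21 of 34945 probe sets paired with 1 gene, and they make up 8 of the 18193 genes so measured. The genes were selected on knowledge of their intensities in Hmga2 KO against wild type, Eya2 foremost. That comparison is therefore given for them as a description, and the counts past a threshold are printed beside those of all genes without being read as a test.

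RNA of myoblasts, the precursors of skeletal muscle fibres, was hybridised to 7 Affymetrix mouse arrays. The Hmga2 KO group held 4 samples from C57BL/6 mice without Hmga2 (HMGA2 -/-), replicates 1 and 3 male and replicates 2 and 4 female. The wild type group held 3 samples from C57BL/6 mice, all female, and no group was treated. The labels give neither the age of the mice nor the kind of Hmga2 deletion, and do not say how the myoblasts were isolated or grown. The labels call the samples biological replicates, without saying whether each is a separate mouse, so the spread between samples may be partly technical. Precision is limited by the number of arrays.

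Values are linear intensities of probe sets, and all arrays had the same median. Background was read from 9 probe sets of Y-linked genes, which females lack, and was 33.9 to 58.2 over the 5 female samples. The targeted gene followed the labels. Hmga2 encodes an architectural chromatin protein, and on its brightest probe set intensities were 85.7 to 104 in Hmga2 KO and 9998 to 12800 in wild type. Myoblast markers were bright in both groups, with Myod1 at 14293 to 15299 in Hmga2 KO and 14778 to 15765 in wild type. The defining endothelial markers Pecam1, Cdh5, Kdr and Tek stayed at 45.9 to 107 in Hmga2 KO and 54.0 to 111 in wild type. Summed over 4 leukocyte markers, intensities were 343 to 373 in Hmga2 KO and 363 to 368 in wild type. Of these Ptprc and Adgre1 were near background, at 50.9 to 74.7 in Hmga2 KO and 47.0 to 69.5 in wild type, while Cd68 and Csf1r lay above it, at 109 to 125 in Hmga2 KO and 107 to 141 in wild type. The 3' over 5' ratio of the Actb controls, which grows as RNA degrades, was 1.64 to 1.74 in Hmga2 KO and 1.62, 1.94 and 1.61 in wild type replicates 1, 2 and 3.

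As background, Six-family proteins are homeodomain factors that bind DNA, in muscle at sites known as MEF3. Eya proteins do not bind DNA themselves. They are recruited by Six-family proteins as coactivators, and they also carry a protein tyrosine phosphatase domain. Dach proteins, relatives of the Ski family, act mostly as corepressors in the same complexes. In the muscle lineage the network lies with the Pax factors upstream of the myogenic regulators Myf5, Myod1 and Myog, and later it helps to set the fast fibre programme.

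The letters that Six-family proteins are known to bind were looked for in the members' own promoters, to show what the network reads. RefSeq promoters of build GRCm38.p6 were matched by symbol for 6 of the 8 genes, Eya1 and Eya2 being the others, with 8 windows in all because Eya4 and Six4 have more than 1 start site. The MEF3 letters TCAGGTTTC, searched on both strands in the 250 bases before the start site, stood in 1 member, Six4, and in 0.387% of 32851 promoters. The Six4 stretch, chr12:73113326-73113354 on the minus strand, is printed first, with the MEF3 letters in capitals as they read on the opposite strand. The letters lie 99 to 91 bases before 1 of the start sites of Six4, and they are shown because Six4 itself belongs to the Six-family. The second stretch, chr17:85688255-85688341 on the minus strand, lies before the start site of Six2 and is shown because Hmga2 is known to bind runs of A and T. Its capitals mark the longest run of A and T letters of the 6 genes, 18 bases, 47 to 30 bases before the start site, against a median of 7 over all promoters, and 3.24% of promoters hold a run at least as long.
Six4: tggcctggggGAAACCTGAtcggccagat
Six2: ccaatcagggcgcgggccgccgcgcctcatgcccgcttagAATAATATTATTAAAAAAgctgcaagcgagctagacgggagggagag
These are letter matches. No binding was measured on the arrays, and a promoter without a match says nothing about binding elsewhere.

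Among the coactivator genes, Eya2 (NCBI gene 14049) had the widest gap between the groups. Its single probe set read 671, 1122, 686 and 611 in Hmga2 KO replicates 1 to 4, against 288, 224 and 172 in wild type replicates 1 to 3. All Hmga2 KO samples lay well above the wild type samples, and all samples of both groups lay above background. The mean intensity was 773 ± 235 (SD, n = 4) in Hmga2 KO and 228 ± 58.3 (SD, n = 3) in wild type. On the scale of log2(intensity + 1), on which all differences below are given, Hmga2 KO was higher by 1.74 (SE 0.234, 95% interval 1.22 to 2.27), a 3.35-fold difference. The male Hmga2 KO samples averaged 679 and the female ones 866, so the level was above wild type in both sexes of the mutant. With females alone the difference was 1.89. No wild type male is analysed here, so the difference cannot be given within males.

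The Eya2 difference stayed between 1.55 and 1.93 under all 15 alternatives tried. It was 1.55 without Hmga2 KO replicate 2, the sample with the highest Eya2, and 1.56 without wild type replicate 3, the lowest. With 1 probe set, no second measurement of Eya2 on the array bears on the difference. In bulk RNA, more cells of a type and more RNA per cell cannot be told apart. Muscle also holds fibroblasts and fibro-adipogenic progenitors, and summed over 9 of their 10 listed markers intensities were 7874 to 9061 in Hmga2 KO and 4952 to 6986 in wild type, so these groups did not overlap either. Mgp weighed most in the sum in all samples except wild type replicate 1, at 4004 to 5167 in Hmga2 KO and 2495 to 2914 in wild type. Of the 9, 8 lay above the median difference of all genes. The other, Col1a1, went the opposite way by -0.71, with 69.0 to 2189 in Hmga2 KO and 552 to 2891 in wild type. The groups overlapped for Col1a1, and also for Pdgfra, Cd34, Islr, Dcn, Lum and Dpt. They did not overlap for Mgp and for Smoc2, which read 154 to 510 in Hmga2 KO and 88.2 to 103 in wild type (difference 1.67). An unadjusted p under 0.05 by limma was found for 4 of the 9, all higher in Hmga2 KO, where 13.3% of all genes had one in either direction. Dcn, Lum and Dpt were dim throughout, at 38.9 to 82.5 in Hmga2 KO and 45.4 to 64.2 in wild type, and the part of such cells in the Eya2 difference was not tested. Summed over 4 markers of smooth muscle and pericytes, intensities were 17173 to 25224 in Hmga2 KO and 15095 to 22751 in wild type, with overlap. Of these the pericyte marker Rgs5 read 5946 to 11001 in Hmga2 KO and 949 to 6701 in wild type, a difference of 1.72 with overlapping groups, and its part was not tested either.

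**Figure D1:**
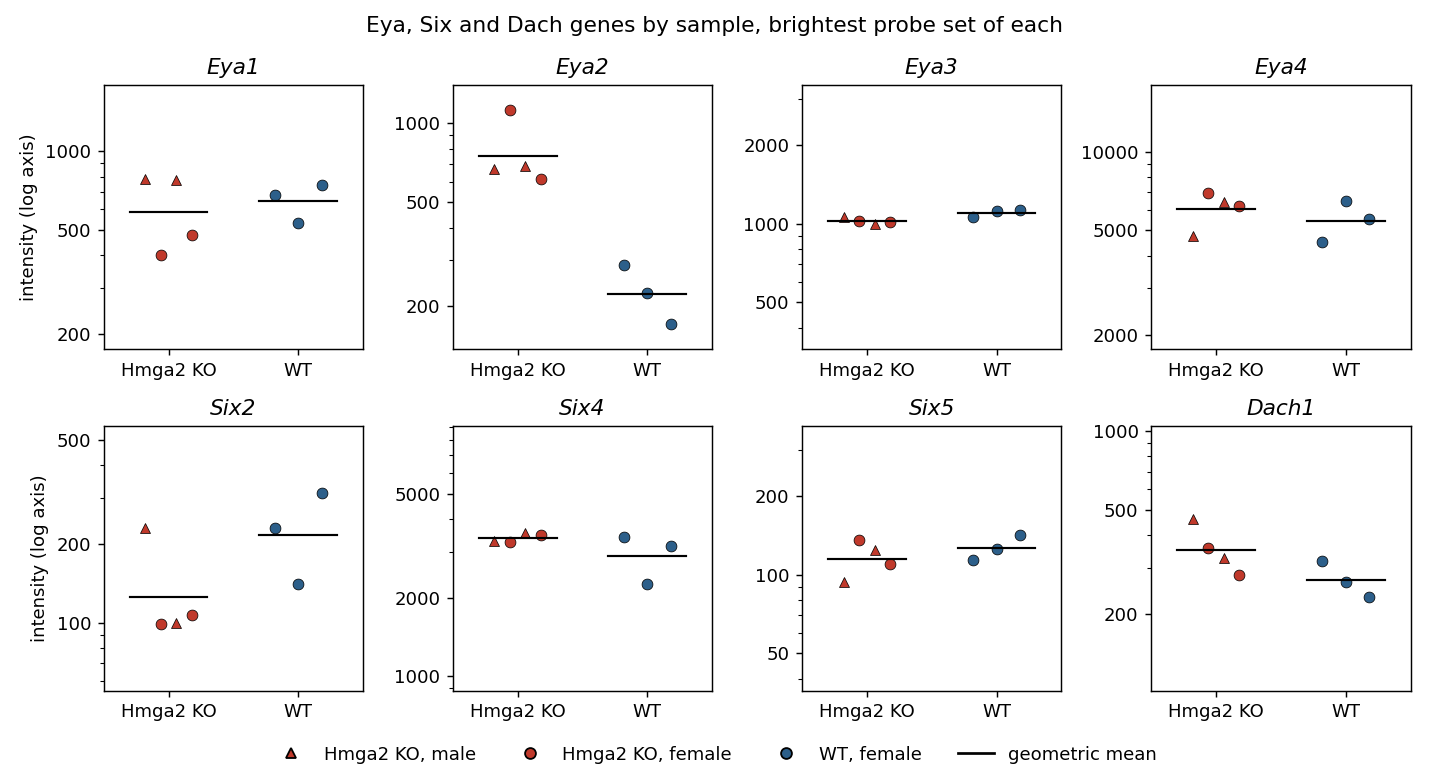
Intensity (log axis) of each gene's brightest probe set in every sample, with Hmga2 KO (red, triangles for males and circles for females) left of wild type (blue, all female) and bars at the geometric means. Each panel spans its own range with the same number of log units. Eya2 separates the groups (611 to 1122 against 172 to 288), Six2 shows 1 Hmga2 KO sample near the wild type level, and Eya1 is split by sex within Hmga2 KO.

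Eya4 (NCBI gene 14051), a coactivator known for its role in the inner ear and the heart, was bright on 3 probe sets. On the brightest it read 4777, 6959, 6441 and 6192 in Hmga2 KO, against 4534, 6453 and 5505 in wild type. The 2 groups covered much the same range, and the difference was 0.15 (95% interval -0.21 to 0.51). The other 2 bright probe sets differed by 0.25 and 0.11, with overlapping groups on both. The remaining one read 45.0 to 59.4 in Hmga2 KO and 46.9 to 53.9 in wild type, within or at the edge of background.

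Eya1 (NCBI gene 14048) is the member that in mice works with Six-family proteins in fast muscle fibres. Its brightest probe set read 783, 401, 775 and 479 in Hmga2 KO and 683, 534 and 742 in wild type. The Hmga2 KO values fell into a high male pair and a low female pair with all wild type samples between the pairs. The difference between genotypes was -0.15 (95% interval -0.71 to 0.41). With females alone it was -0.56. The other probe sets of Eya1 were dim, at 85.5 to 124 and 50.5 to 68.1 in Hmga2 KO, and 80.8 to 128 and 52.6 to 59.2 in wild type, so the gene rests on 1 probe set.

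Eya3 (NCBI gene 14050), a widely expressed relative, varied little. Its brightest probe set read 1058, 1027, 994 and 1014 in Hmga2 KO, against 1064, 1117 and 1127 in wild type. These groups did not overlap, yet the nearest samples were 1058 in Hmga2 KO and 1064 in wild type, and the difference was -0.11 (95% interval -0.29 to 0.08). The median difference of all genes was itself -0.07. A second probe set also had Hmga2 KO below wild type in every sample, at 240 to 286 against 290 to 322. Another went the other way, with 250 to 316 in Hmga2 KO against 367, 147 and 265 in wild type, a difference of 0.23. The 147 belongs to wild type replicate 2, which also had the highest 3' over 5' ratio, and the part of RNA quality in it was not tested. Averaged over the 4 probe sets, the difference of Eya3 was -0.05.

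Among the DNA-binding members, Six2 (NCBI gene 20472), a homeodomain factor best known from kidney progenitors, had the lowest Hmga2 KO values relative to wild type. Its single probe set read 231, 99.3, 100.2 and 106.9 in Hmga2 KO and 231, 141 and 312 in wild type. The female samples and male replicate 3 of Hmga2 KO lay below all wild type samples, whereas male replicate 1 lay among them. The lower values were at about the level of the brightest Hmga2 probe set in Hmga2 KO (85.7 to 104). Little of them may be Six2 signal, so the size of the difference is uncertain. The difference was -0.79 (95% interval -1.56 to -0.01), a 0.580-fold level. It was -1.08 without Hmga2 KO replicate 1, -1.06 with females alone and -0.52 without wild type replicate 3, and its direction held under all 15 alternatives. Hmga2 KO replicate 1 also had the highest values of the progenitor markers Pdgfra and Cd34. Pdgfra was 620 against 189 to 200 in the other Hmga2 KO samples and 133 to 383 in wild type. Cd34 was 527 against 93.8 to 114 and 101 to 174. Other markers of that list did not share this. Mgp (4004 against 4336 to 5167) and Islr (1196 against 1678 to 2385) were lowest in replicate 1 among the Hmga2 KO samples. Col1a1 was highest in it among them (2189), but higher in wild type replicate 1 (2891). The part of these markers in the Six2 level of replicate 1 was not tested.

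Six4 (NCBI gene 20474) was bright in both groups. In mouse muscle it binds MEF3 and related enhancer sites. On its brightest probe set it read 3301, 3263, 3533 and 3479 in Hmga2 KO, against 3423, 2259 and 3140 in wild type. The wild type group was pulled down by replicate 2, without which the difference of 0.23 (95% interval -0.09 to 0.55) became 0.05. Another 2 bright probe sets gave -0.02 and -0.03, and the dim one -0.09. The 4 probe sets of Six4 therefore do not share a direction, and their mean differed by 0.02. Six5 (NCBI gene 20475), a gene next to the myotonic dystrophy kinase gene, was dim, with 93.8, 135, 124 and 110 in Hmga2 KO and 114, 125 and 142 in wild type. The 2 groups overlapped, with a difference of -0.14 (95% interval -0.46 to 0.17).

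Dach1 (NCBI gene 13134), the corepressor member, read 460, 358, 327 and 281 in Hmga2 KO and 320, 266 and 231 in wild type on its brightest probe set. Hmga2 KO replicates 1, 2 and 3 lay above every wild type sample and replicate 4 did not. The difference was 0.38 (95% interval -0.02 to 0.77), and 0.23 with females alone. The other 2 probe sets differed in the same direction by 0.15 and 0.12, both with overlapping groups and intervals that include 0.

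**Figure D2:**
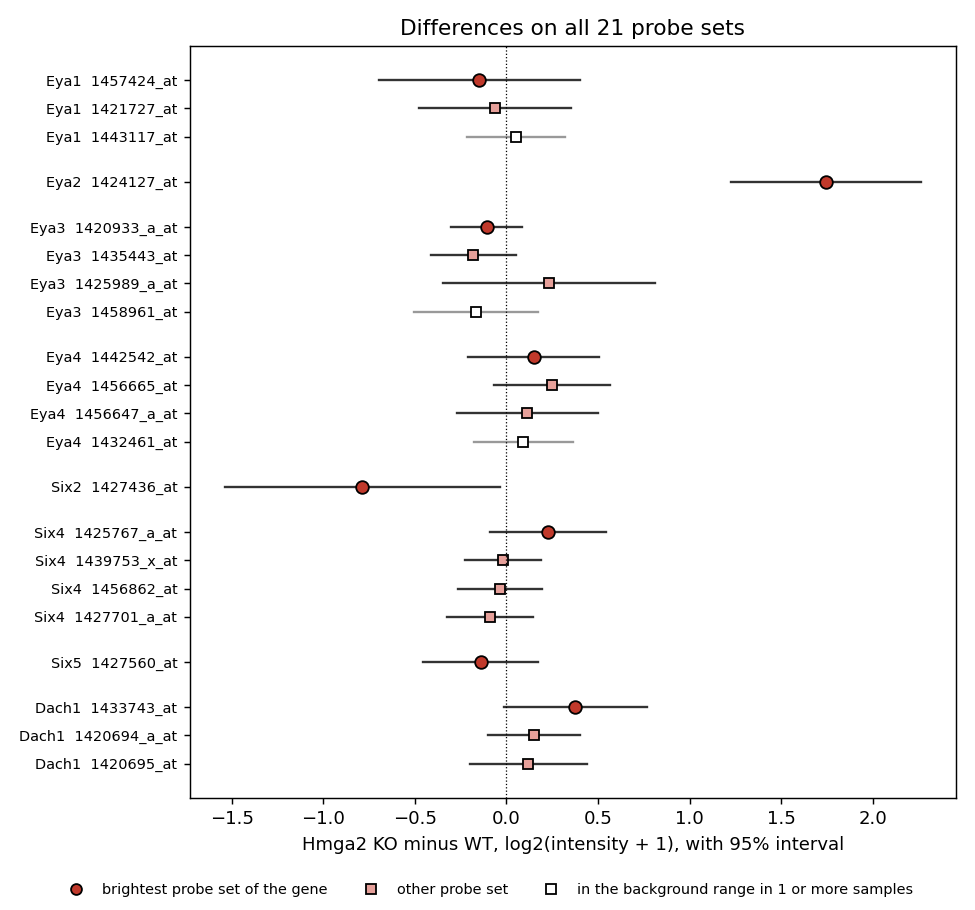
Difference between Hmga2 KO and wild type in log2(intensity + 1) for all 21 probe sets, with 95% intervals from the limma fit of all probe sets. Filled circles mark the brightest probe set of each gene, squares the others, and open squares those in the background range in 1 or more samples. The interval of Eya2 (1.23 to 2.26 in this fit) lies apart from all others, and probe sets of Eya1, Eya3 and Six4 fall on both sides of 0.

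Counted over the network, 0 of 8 genes passed an adjusted p of 0.05 by limma, where 0.0275% of all genes did, and 2 had an unadjusted p under 0.05, where 13.3% of all genes did. The groups did not overlap for 2 of the 8 genes, Eya2 with Hmga2 KO higher and Eya3 with Hmga2 KO lower, against 11.7% of all genes, 2.37% with Hmga2 KO higher and 9.29% lower. Over probe sets this held for 3 of 21 (1 higher, 2 lower), against 10.9% of all, 2.47% higher and 8.4% lower, and 0 of 21 passed the adjusted p, where 0.02% of all did. Since this comparison was known when the genes were chosen, nothing is read from these counts. The members' median difference was 0.02 and that of all genes -0.07, with 4 of the 8 members above that of all genes.

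The 2 sexes of Hmga2 KO gave a comparison that the choice of genes did not use. Males (n = 2) were compared with females (n = 2) in a limma fit with 3 groups, in which all 7 samples share 1 estimate of the spread. None of the 8 members passed, where 0.0385% of all genes did, and 1 had an unadjusted p under 0.05, where 6.30% of all genes did. That gene was Eya1, with the 783 and 775 of the males against the 401 and 479 of the females, a difference of 0.83 (SE 0.177, 95% interval 0.42 to 1.23, adjusted p = 0.336, limma). Every male value of this probe set exceeded every female one, but the dimmer probe sets of Eya1 differed by 0.01 and 0.24. For the other 7 genes the adjusted p ran from 0.929 to 1.00. The intervals are wide, from -0.98 to 0.41 for Eya2, from -0.41 to 1.53 for Six2 and from -0.21 to 0.79 for Dach1, so differences within them were not detectable with 2 samples of each sex.

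**Figure D3:**
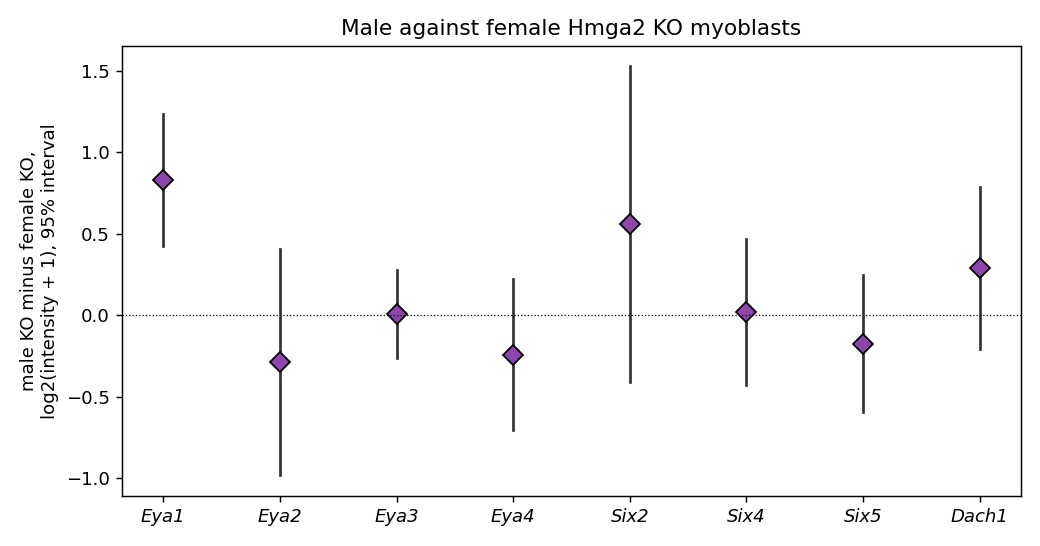
Difference between male and female Hmga2 KO samples (2 of each) in log2(intensity + 1) for the brightest probe set of each gene, with 95% intervals from the 3-group limma fit. The interval of Eya1 (0.42 to 1.23) excludes 0 before adjustment for the number of genes, and those of the other 7 genes include 0.

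By level over the 3 kinds of sample, Eya2 was highest in female Hmga2 KO (mean 866), then male Hmga2 KO (679), then wild type (228), and the first 2 did not differ beyond their spread. Eya1 was highest in male Hmga2 KO (779), then wild type (653), then female Hmga2 KO (440). Six2 was highest in wild type (228), then male Hmga2 KO (165), then female Hmga2 KO (103), and the males' 2 values, 231 and 100.2, spanned most of that range. Dach1 was highest in male Hmga2 KO (393), then female Hmga2 KO (319), then wild type (272). For Eya3, Eya4, Six4 and Six5 the 3 means lay within 1020 to 1103, 5498 to 6576, 2941 to 3417 and 109 to 127.

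Other genes that work with the network were taken from a list of relatives, upstream factors and partners, of which 32 of 35 were measured and the others are not analysed here. This list was also chosen with earlier results of these data known, so its counts only describe. None passed between Hmga2 KO and wild type by limma, where 0.0275% of all genes did. An unadjusted p under 0.05 was found for 7 of the 32, 2 with Hmga2 KO above wild type and 5 with it below, where 13.3% of all genes had one. The list's median difference was -0.10, near the -0.07 of all genes. Dach2, the closest relative of Dach1, read 131, 147, 97.3 and 132 in Hmga2 KO and 85.7, 92.1 and 94.0 in wild type, a difference of 0.47 (adjusted p = 0.293). It was dim on this probe set, where the groups did not overlap, with 97.3 in Hmga2 KO and 94.0 in wild type as the nearest samples. On the other, at 99.4 to 139 in Hmga2 KO and 67.7 to 108 in wild type, they overlapped. Ep300, an acetyltransferase that serves as a coactivator, had 3441 to 4129 in Hmga2 KO and 2779 to 3172 in wild type (difference 0.28, adjusted p = 0.319). Sin3a, a scaffold of corepressor complexes, had the smallest p of the list, with 503 to 589 in Hmga2 KO and 665 to 707 in wild type (difference -0.34, adjusted p = 0.267).

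Gnai2, a G protein subunit reported to bind Eya2, read 3590 to 3826 in Hmga2 KO and 3965 to 4746 in wild type (difference -0.25, adjusted p = 0.332). Meox2, a homeobox factor of muscle precursors, read 106 to 121 in Hmga2 KO, against 182, 117 and 234 in wild type (difference -0.56, adjusted p = 0.314), with overlapping groups. Sobp, whose fly relative binds the Six-family protein sine oculis, was dim in all samples, at 65.7 to 111 in Hmga2 KO and 98.2 to 136 in wild type (difference -0.48, adjusted p = 0.336). The head and eye genes Six3 and Six6 stayed at 50.7 to 106 in Hmga2 KO and 51.3 to 121 in wild type over their 4 probe sets. These are dim levels in both groups.

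Genes downstream of the network had mostly negative differences. Their list was chosen with earlier results of these data known, so its counts and median are a description and not read as a test. The list held genes with described MEF3 or related sites and fast muscle genes known to depend on Six- and Eya-family proteins, of which 29 of 30 were measured. By limma 0 of the 29 passed, where 0.0275% of all genes did. There were 8 with an unadjusted p under 0.05, each lower in Hmga2 KO, where 13.3% of all genes had one in either direction. The list's median difference was -0.32 against -0.07 for all genes, with 23 of 29 members below that of all genes. In females alone the list median was -0.17 and that of all genes -0.05. There 3 of the 29 had an unadjusted p under 0.05 by limma, where 1246 of 18193 genes did. Casq1, the calcium store protein of fast fibres, read 138, 656, 275 and 385 in Hmga2 KO and 694, 984 and 905 in wild type (difference -1.44, adjusted p = 0.293). The groups did not overlap. Myf6, a myogenic regulator of maturing fibres, read 145, 519, 238 and 150.02 in Hmga2 KO and 517, 646 and 500.1 in wild type (difference -1.27, adjusted p = 0.293). Hmga2 KO replicate 2 lay within the wild type range, and without it Myf6 passed (difference -1.66, adjusted p = 0.0339).

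Actn3, of the fast fibre Z-disc, read 425 to 1278 in Hmga2 KO and 1267 to 2081 in wild type (difference -1.10, adjusted p = 0.293). Aldoa, a glycolytic enzyme with a MEF3 site in its muscle promoter, read 10584 to 12507 in Hmga2 KO and 12782 to 14102 in wild type (difference -0.28, adjusted p = 0.305), without overlap. Tnnt3, the fast troponin T, had 3480 to 8436 in Hmga2 KO and 7236 to 9899 in wild type (difference -0.62, adjusted p = 0.357). Ckm, the muscle creatine kinase, was dim, with 111 to 144 in Hmga2 KO and 141 to 188 in wild type (difference -0.32, adjusted p = 0.351). The regulators nearest to the network in precursors differed less, with -0.06 for Myod1 and -0.17 for Myog, while Myf5 had 1816, 4885, 2478 and 1687 in Hmga2 KO and 1979, 1412 and 1408 in wild type (difference 0.64, adjusted p = 0.431). With females alone the differences were -0.76 for Casq1, -0.98 for Myf6, -0.81 for Actn3, -0.20 for Aldoa, -0.26 for Tnnt3 and -0.39 for Ckm. For male minus female Hmga2 KO they were -1.36, -0.58, -0.59, -0.15, -0.71 and 0.14 in the same order.

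The mean of the target list, relative to the average of all 7 samples, was -0.58, 0.30, -0.17 and -0.19 in Hmga2 KO replicates 1 to 4 and 0.06, 0.38 and 0.21 in wild type replicates 1 to 3. Hmga2 KO replicate 2, which had the highest Eya2, thus lay within the wild type range. Without Hmga2 KO replicate 1 or any other sample in turn, the list median stayed 0.18 to 0.39 below that of all genes. Between male and female Hmga2 KO the list median was -0.44, against -0.04 for all genes. Of the 29, 10 had an unadjusted p under 0.05 by limma, where 6.30% of all genes did. The list means of male replicate 3 (-0.17) and female replicate 4 (-0.19) were nearly equal, so the sexes overlapped and the gap lay between replicates 1 and 2. Genes of 1 list can vary together from sample to sample, so this count is not read as a test. By limma 0 of the 29 passed the adjusted p, where 0.0385% of all genes did. Summed over 8 myoblast markers, intensities were 51672, 66815, 58536 and 59861 in Hmga2 KO and 60940, 67496 and 65603 in wild type, with the lowest sum in Hmga2 KO replicate 1. Wild type replicate 2, with the highest list mean, also had the highest 3' over 5' ratio, and the part of either in the list's difference was not tested. The list shares Myod1, Myf5 and Myog with the myoblast markers.

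**Figure D4:**
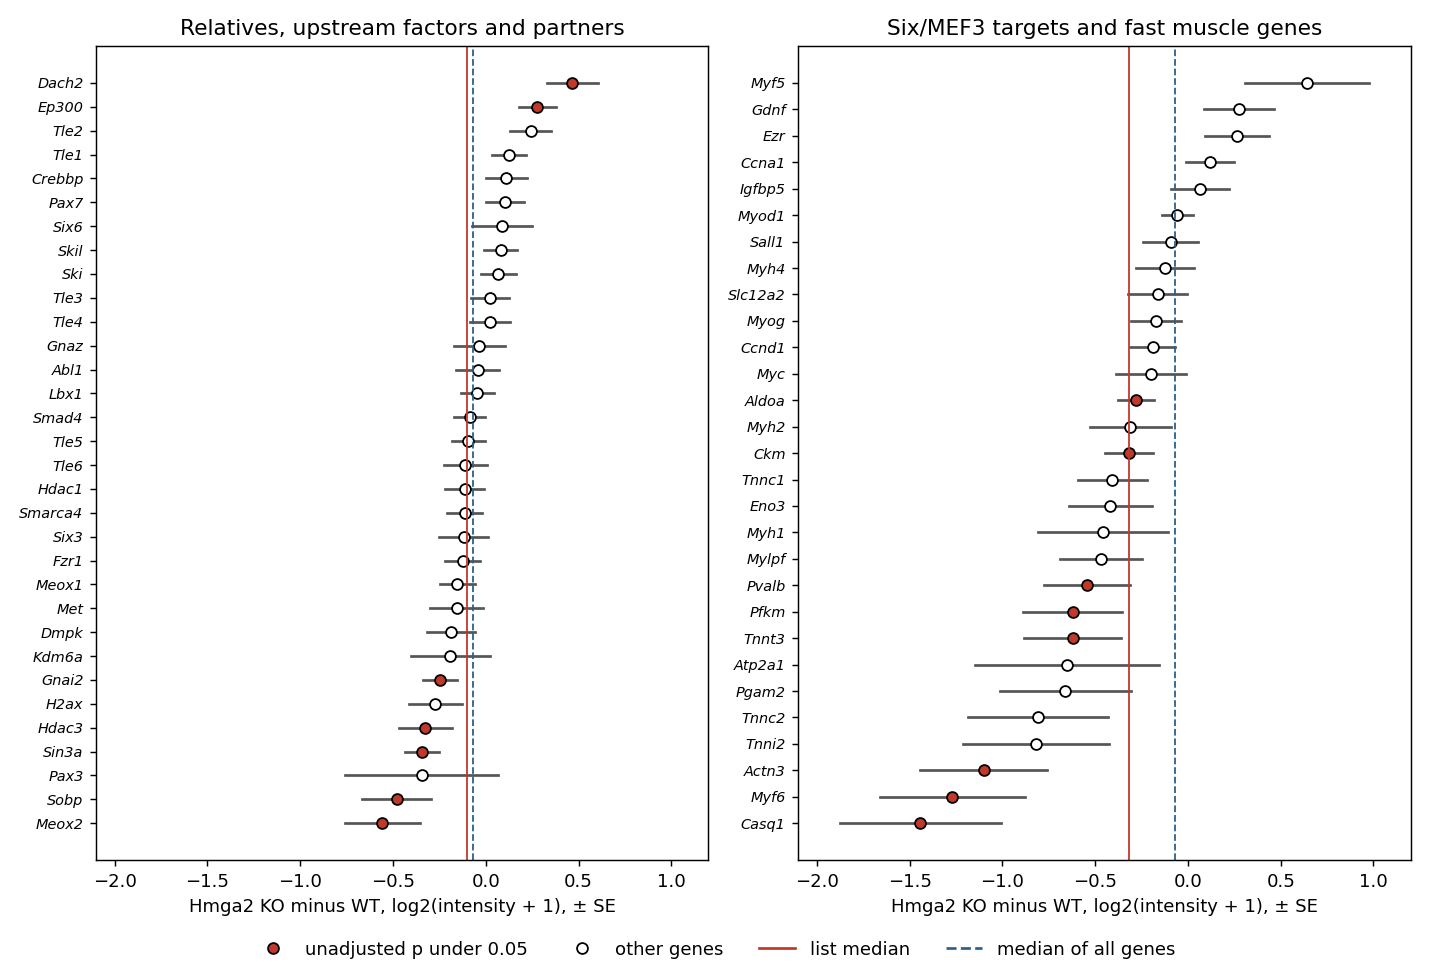
Difference between Hmga2 KO and wild type in log2(intensity + 1) with its SE for the 32 partners (left) and the 29 targets (right), ordered by size. Red points have an unadjusted p under 0.05, none passes after adjustment, and the lines mark the list median (red) and the median of all genes (blue, dashed, -0.07). The targets centre on -0.32 and the partners on -0.10.

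The genes whose pattern was most like that of Eya2 were sought by Pearson correlation of log2 values over the 7 samples, among 10912 genes outside the dimmest 40%. These samples share the 2 genotypes, so any gene that differs between the genotypes correlates with Eya2, and the values only describe. The most alike were Arfgef2 (0.97), a factor of vesicle traffic, 2610008E11Rik (0.97), the membrane-bound metalloprotease gene Mmp16 (0.96), Ccdc6 (0.96) and Plekhm3 (0.96). Mmp16 read 248 to 361 in Hmga2 KO and 160 to 199 in wild type. The most opposite were B9d2 (-0.97), a gene of the primary cilium, the apoptosis regulator Bad (-0.96), the spindle gene Haus8 (-0.96), Mid1 (-0.95) and Cfc1 (-0.95). For comparison Hmga2 had -0.94, the 8th lowest value. Within the network Eya2 correlated at 0.71 with Dach1, 0.51 with Six4, 0.35 with Eya4, -0.37 with Eya1, -0.68 with Six2 and -0.85 with Eya3, and Six5 was too dim to be included.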

How the data were processed

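Biotin-labelled cRNA of 7 myoblast samples was measured on Affymetrix arrays, per the labels' protocols. The authors deposited 1 linear intensity per probe set and sample, with the same median on all arrays. The sources used here do not give the summarization, the background correction or the software. Of 45101 probe sets, 34945 were paired with 1 gene by the platform table, 932 with several and 9160 with none, besides 64 controls. Those of several genes were left out. Identifiers of 34741 probe sets matched RefSeq genes (GRCm38.p6).

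Intensities were taken as log2(intensity + 1). The probe set with the highest mean stood for its gene. Groups, assigned by sample title, were compared by lmFit and eBayes of limma 3.58.1 (R 4.3.3) over all genes and over all probe sets, with Benjamini-Hochberg adjustment at 0.05 and no covariate. Alternatives were sex as a covariate, females only, the replicate number as a block, each sample left out, quantile normalization, no dimmest 40%, averaged probe sets, a pseudocount of 16 and a trended, robust prior. The fits were tested on simulated data.

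The members and lists were chosen with earlier results of these data known. Named were all members, the 6 smallest p of each list and the 5 genes most like and most opposite to Eya2, leaving out Xist and Y-linked genes. Six3, Six6, Myod1, Myog and Myf5 were added after their values were seen.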

Additional observations from a re-analysis of the deposited data

Results flagged for a closer look

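Over 23 groups of 4 Hmga2 KO samples (21 probe sets and the means of both lists), 3 probe sets had 1 sample far from the others by Dixon's ratio (the gap to the nearest sample over the whole range) at its 95% critical value. Chance gives about 1 such group in 20. For Six2 the ratio was 0.913, with Hmga2 KO replicate 1 at 231 and the others at 99.3 to 106.9. For 1 of the bright Six4 probe sets it was 0.956, with replicate 4 at 3052 and the others at 2810 to 2821. For the dimmest Eya4 probe set it was 0.867, with replicate 1 at 45.0 and the others at 57.2 to 59.4, at or near background. Eya2 was near the limit, at 0.809, with replicate 2 highest.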

How the results depend on the processing

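Of 315 alternative values, 291 were counted as unchanged, 15 moved and 9 reversed. Unchanged meant near the main count for counts and the same direction and side of the threshold for sex differences. For genotype differences it meant within the spread between samples, whatever the threshold. Eya2 passed in 2 of its 15, the replicate block (adjusted p = 0.0181, limma) and without Hmga2 KO replicate 2 (0.0339), against 0.0879 in the main fit. Since Eya2 was chosen on this comparison, this is not read as a test. Between Hmga2 KO and wild type, 5 genes and 7 probe sets passed. With the replicate number as a block, 99 genes and 105 probe sets passed, and the Eya2 difference was 1.84. No wild type sample has the number of Hmga2 KO replicate 4, so the block differences rest on the other 3 pairs and leave that sample out. Same-numbered samples correlated in their deviations at 0.31, 0.37 and -0.18, and differently numbered ones at -0.40 to 0.18. The 0.31 and 0.37 lay above all of the latter and the -0.18 lay among them, so the check does not settle pairing. The numbers are those of the titles. The other labels number the samples differently and disagree with each other on Hmga2 KO replicate 2, so both the block and this check rest on uncertain numbers. Leaving out 1 sample gave 2 to 17 genes and 4 to 22 probe sets, with 17 genes when Hmga2 KO replicate 2 was left out, 3 for Hmga2 KO replicate 3, 3 for wild type replicate 1 and 2 for wild type replicate 3. Of the target list, 0 to 1 passed when 1 sample was left out, the 1 being Myf6 without Hmga2 KO replicate 2. Between male and female Hmga2 KO 7 genes passed, and 3 without the dimmest 40%, where fewer genes were tested.

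With sex as a covariate, and with females only, Eya1 differed between Hmga2 KO and wild type by -0.56. It was 0.03 without Hmga2 KO replicate 2. Eya3 differed by -0.022 after quantile normalization and by -0.055 with averaged probe sets, and Six4 by 0.021 with averaged probe sets. For male minus female Hmga2 KO, averaged probe sets gave -0.039 for Eya3 and -0.026 for Six4, each reversed. Leaving out 1 sample gave -0.72 to 0.15 for Eya2, -0.038 to 0.052 for Eya3, -0.041 to 1.15 for Six2, -0.030 to 0.068 for Six4 and -0.37 to 0.023 for Six5. The cause of these shifts was not tested. Six5 has no value without the dimmest 40%. Where 1 male or female is left out, the lone sample is assumed to vary like the other groups. Signals in the background range in 1 or more samples, as in 3 of 21 probe sets, limit what can be read from them. The brightest Hmga2 probe set read 85.7 to 104 in Hmga2 KO, above that range. Readings near that level, as for Six5 and for Six2 in most Hmga2 KO samples, share this limit.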
